A study of Mus musculus with 16 samples.

Results

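Periosteal stem cells (PSC), sorted from the tissue that wraps the outside of bone, were compared with endosteal mesenchymal stem cells (MSC), sorted from the tissue at its inner face. The comparison uses 4 PSC and 4 MSC RNA-seq libraries out of 16, and all 13797 genes, of 22559 in the table, that had a value of at least 10 in at least 4 of the 16 libraries. Every library came from mouse femur at postnatal day 6, strain C57/B6, genotype CTSK-cre+ mTMG. In these mice the promoter of cathepsin K (Ctsk) drives Cre, and Cre switches the mTmG reporter from membrane Tomato to membrane GFP (mGFP) in that cell and its descendants, so the colour records past Ctsk promoter activity and not the present transcript level. The MSC were labelled mGFP-negative, and the sources used here do not give the surface gates. All cells were taken on 1 day from 1 litter without pooling, and the labels do not say whether libraries with the same number share an animal. P-values therefore measure the spread between these libraries, which may be partly technical. The other 8 libraries, 4 each of the progenitor sorts PP1 and PP2, served only to estimate the spread unless named.

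The femur grows at the growth plate, where resting chondrocytes feed columns of dividing chondrocytes that then stop dividing, enlarge and mineralise their matrix. Prehypertrophic chondrocytes secrete Indian hedgehog (Ihh), which keeps neighbouring chondrocytes dividing and starts bone formation in the perichondrium and periosteum, and parathyroid hormone-related protein (Pthlh) made near the joint delays their maturation through the receptor Pth1r. Stromal cells of the inner bone surface and marrow are known for Cxcl12, Lepr and other niche factors, and they lie beside vessels and nerves.

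PSC had more transcript of sterol synthesis, glycolysis and ribosomal protein genes and of a group of growth plate genes. They had less transcript of joint-surface, perivascular, marrow stromal, glial and adhesion genes and of many collagen genes. Of the 13797 genes 3630 (26.3%) differed at an adjusted p under 0.05 in limma (5064, 36.7%, at an unadjusted p under 0.05), 1670 (12.1%) higher and 1960 (14.2%) lower in PSC. The list counts below are to be read beside these 2 shares, 12.1% higher and 14.2% lower. Changes above 2-fold were mostly falls, 239 genes (1.73%) higher and 1348 (9.77%) lower. Values of the PSC and MSC libraries did not overlap for 5344 genes (38.7%; 17.6% higher and 21.1% lower), and the median log2 difference of all genes tested was -0.18. With the libraries scaled to their totals without the 20 most abundant genes, the median was -0.384 and the calls were 825 higher and 2661 lower (23.7% higher, against 46% as deposited), so small rises depend on the scaling. Of 3299 genes with a mean of at least 1000 in both sorts, 878 had a 95% interval of the log2 difference that lay within ±0.5.

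Read depth was 28.53 to 32.65 M reads in PSC and 39.45 to 48.36 M reads in MSC. A read was found for 13312 ± 427 genes in PSC, against 15605 ± 77.7 in MSC (SD, n = 4 each), a difference of -2292.5 genes, and -2111.2 with all libraries thinned to equal depth (exact permutation test, two-sided p = 0.0286, the smallest that 4 against 4 allows). Of the genes tested 7.06% had no read in a PSC library on average, against 0.476% in an MSC library, and 7.1% against 0.62% with all libraries thinned to equal depth. Large falls of genes near 0 reads therefore rest on few reads. Summed reads of Y-linked genes were near 0 in replicates 1 and 4 and high in replicates 2 and 3 of both sorts, so the sexes of the libraries were balanced between them. Values are gene read counts divided by 1 size factor per library, called normalized counts below. They are not corrected for gene length, so levels are compared between libraries and never between genes. Each log2 difference is PSC minus MSC on log2(normalized count + 1), with its standard error (SE).

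**Figure D1:**
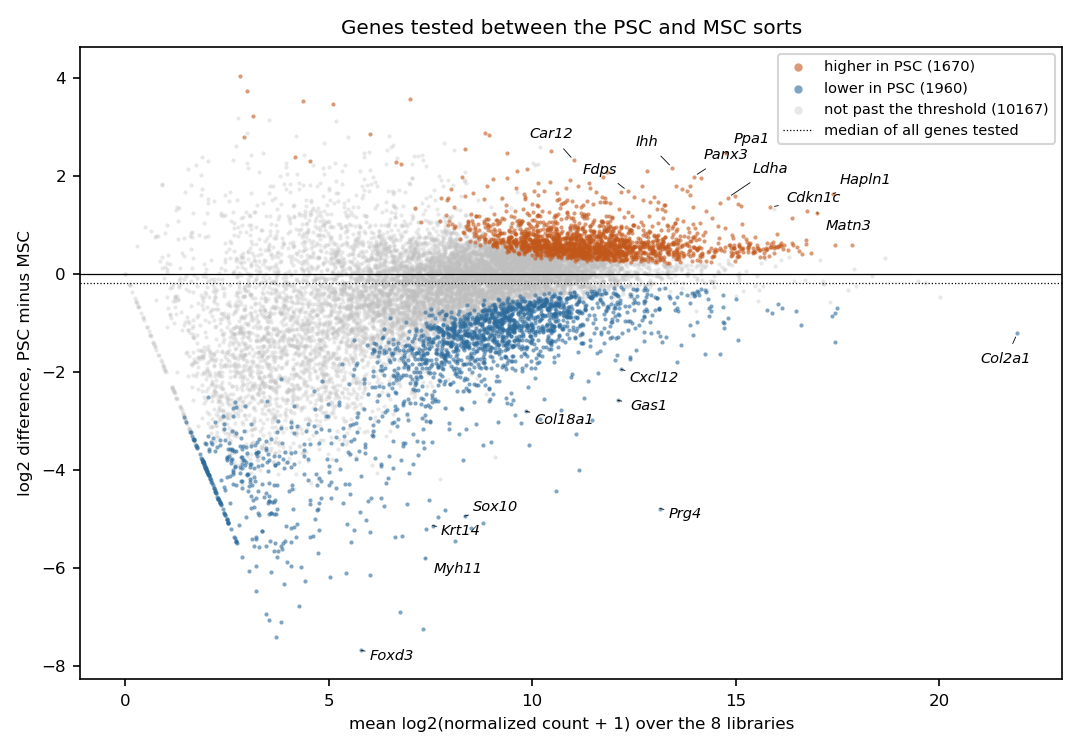
Each point is 1 of 13797 genes; the horizontal axis is the mean log2(normalized count + 1) over the 8 PSC and MSC libraries and the vertical axis is the log2 difference, PSC minus MSC. Orange points are the 1670 genes higher in PSC and blue points the 1960 lower, grey points did not pass, and the dotted line marks the median of -0.18; rises gather at high levels and the largest falls at low levels.

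Growth plate genes moved in both directions: Ihh, Pth1r, Panx3 and the cartilage matrix genes Hapln1 and Matn3 were higher in PSC, while the collagen genes Col11a2 and Col9a2 were lower. Ihh had 22911, 26139, 21191 and 24904 normalized counts in the PSC libraries 1 to 4, against 4972, 6176, 4702 and 5303 in the MSC libraries. The lowest PSC library stood well above the highest MSC library (4.51-fold, adjusted p = 0.000139 in limma, as for every adjusted p below). Pth1r had 50355, 65112, 49605 and 60962 in PSC, against 16524, 26052, 19754 and 21492 in MSC (2.71-fold higher, log2 difference 1.44 ± 0.14, adjusted p = 7.84e-07). Panx3, a channel protein that promotes chondrocyte and osteoblast differentiation, had 31753, 36714, 27928 and 32459 in PSC, against 7488, 10105, 7129 and 7731 in MSC (3.99-fold higher, adjusted p = 2.23e-05). Neither gene overlapped between the sorts, and replicate 2 was the highest library of both sorts for both genes. Ppa1, a cytosolic pyrophosphatase that clears the pyrophosphate released by biosynthesis, had 70945, 71641, 56595 and 62985 in PSC, against 10645, 15921, 9047 and 12506 in MSC (5.54-fold higher, log2 difference 2.47 ± 0.24, adjusted p = 7.84e-07). Sgms2, a sphingomyelin synthase, was 2.63-fold higher and Mef2c, a transcription factor of chondrocyte hypertrophy, 1.84-fold higher.

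In all, 6 of 15 prehypertrophic and hypertrophic genes were higher in PSC and 2 lower, with a median log2 difference of 0.19 beside -0.18 for all genes. With the scaling that leaves out the 20 most abundant genes 6 were higher and 4 lower (median -0.02), and in the fit of the 8 libraries 7 were higher and 4 lower. Mmp13, a collagenase of late hypertrophic cartilage, went the other way, with 13406, 12285, 11105 and 8498 in PSC, against 42368, 41517, 27633 and 29068 in MSC. The 4 PSC libraries were all below the MSC libraries (3.09-fold lower, adjusted p = 0.000531). Spp1, which encodes osteopontin, averaged 71062 ± 11006 in PSC, against 120850 ± 27700 in MSC (SD, n = 4 each; adjusted p = 0.0433), a call lost in 10 of 21 alternatives, among them every fit without 1 library other than MSC replicate 3 (adjusted p up to 0.12). Col10a1, the collagen that defines hypertrophic cartilage, had 90027, 135820, 81038 and 98898 in PSC, against 33725, 51261, 32495 and 42622 in MSC. Its libraries did not overlap and its log2 difference was 1.34 ± 1.09, but the fit over all 16 libraries did not call it (adjusted p = 0.412), and the fit of the 8 PSC and MSC libraries did (adjusted p = 0.000559).

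Chondrocyte genes were 7 higher and 5 lower of 23 tested, with a median of -0.13. With the scaling that leaves out the 20 most abundant genes they were 6 higher and 8 lower (median -0.34). The higher ones included matrix-assembly and receptor genes. Hapln1, the link protein that ties aggrecan to hyaluronan, had 309550, 350520, 275420 and 297420 in PSC, against 102150, 104670, 87259 and 98963 in MSC (3.13-fold higher, adjusted p = 2.02e-08). Matn3, the matrilin-3 gene, had 224480, 201800, 191370 and 194780 in PSC, against 94286, 78027, 85423 and 82741 in MSC (2.39-fold higher, adjusted p = 2.9e-07). Both genes were separated by sort in every library. Epyc, a small leucine-rich proteoglycan of growth plate cartilage, averaged 36901 ± 8687 in PSC, against 9415 ± 1972 in MSC (3.9-fold higher), and Fgfr3, the receptor that restrains growth plate proliferation, averaged 14644 ± 2123 in PSC, against 7203 ± 400 in MSC (2.02-fold higher). Matn1 had 315430, 155100, 134220 and 135780 in PSC, against 109540, 58399, 66827 and 56635 in MSC, with replicate 1 the highest library of both sorts. Its 2.46-fold difference (adjusted p = 0.0162) did not pass without PSC replicate 1 (adjusted p = 0.0679).

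The lower chondrocyte genes were Col2a1, Col11a2, Col9a2, Sox5 and Cytl1. Col2a1, the main collagen of cartilage, had 3756700, 2636700, 2404100 and 1990600 in PSC, against 6454200, 5058300, 7757800 and 5228500 in MSC. It took 6.007% to 10.93% of the reads of a PSC library and 15.29% to 21.59% of an MSC library, so both sorts carried abundant cartilage collagen transcript. Its difference (2.3-fold lower in PSC, adjusted p = 0.0139) was lost in the fit of the 8 libraries and without PSC replicate 4 (adjusted p = 0.173 and 0.0594). Col11a2, a minor fibrillar collagen of cartilage, had 182250, 110420, 88368 and 82046 in PSC, against 338120, 233870, 347390 and 250830 in MSC, without overlap (2.62-fold lower, adjusted p = 5.88e-05). Col9a2 was 1.61-fold lower (adjusted p = 0.00927), with an overlap. PSC replicate 1 (220740) lay above MSC replicates 2 and 4 (190390 and 199120). Sox9, the master regulator of chondrocytes, averaged 11131 ± 3846 in PSC, against 11452 ± 2376 in MSC and did not pass (log2 difference -0.08 ± 0.22, adjusted p = 0.843). Acan, which encodes aggrecan, did not pass either, at 138370 ± 31384 in PSC, against 156250 ± 15590 in MSC (adjusted p = 0.384).

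**Figure D2:**
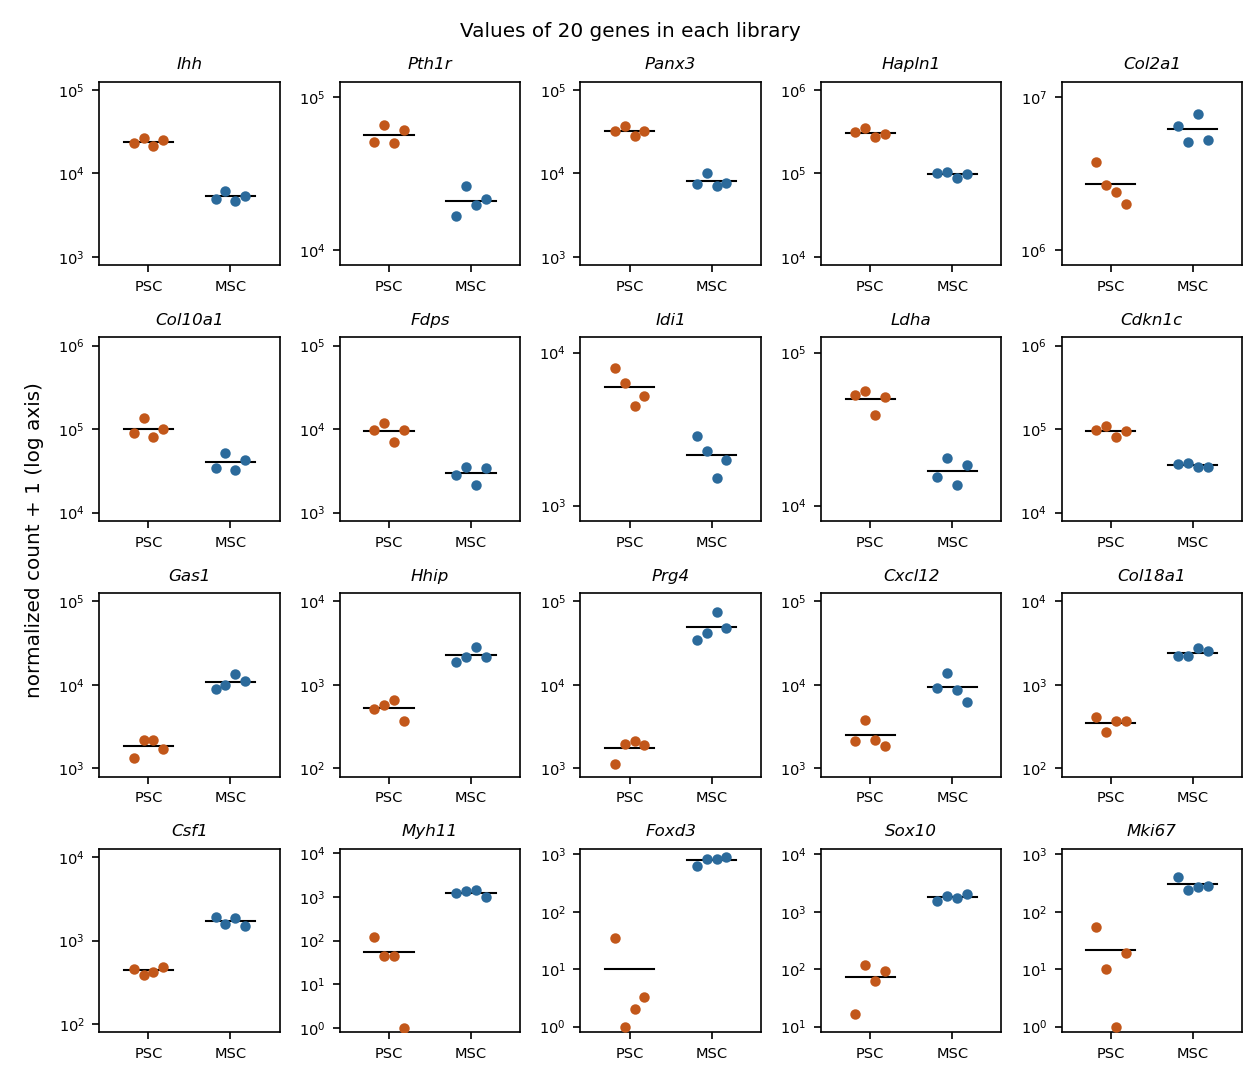
Normalized count + 1 on log axes for 20 genes, 1 panel per gene; orange points are the 4 PSC libraries and blue points the 4 MSC libraries, in replicate order from left to right, and the black line is the group mean. Ihh, Pth1r, Panx3, Hapln1, Fdps, Idi1, Ldha and Cdkn1c lie higher in every PSC library, and Gas1, Hhip, Prg4, Col18a1, Csf1, Foxd3 and Sox10 lie higher in every MSC library.

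Genes of resting zone chondrocytes, the reserve cells at the top of the growth plate, included 4 lower and 0 higher in PSC of 10 tested (limma; 3 to 5 lower and up to 2 higher over the alternatives). Gas1, which encodes a hedgehog co-receptor, and Apoe, which encodes a lipid carrier, led them. Pthlh, the ligand of Pth1r, had 73.7, 177, 250 and 354 in PSC, against 305, 389, 446 and 402 in MSC, with an overlap of PSC replicate 4 and MSC replicate 1. Its difference (2.06-fold lower, adjusted p = 0.0439) did not pass in 11 of 21 alternatives, among them the fits without any 1 of the MSC libraries, PSC replicate 1 or PSC replicate 2 (adjusted p up to 0.157). Ucma and Sfrp5, other markers of that zone, did not pass (adjusted p = 0.146 and 0.984).

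Osteoblast genes were 6 higher and 1 lower of 25 (median -0.02), and of the 5 defining genes Bglap, Bglap2, Ibsp, Sp7 and Runx2 none passed in limma, though the fit of the 8 libraries raised the lower calls to 5. Sp7, which encodes osterix, averaged 3216 ± 465 in PSC, against 2716 ± 353 in MSC (adjusted p = 0.52), and Runx2 averaged 2138 ± 181 in PSC, against 2787 ± 372 in MSC (adjusted p = 0.0826). Ibsp averaged 13102 ± 2476 in PSC, against 22147 ± 4401 in MSC (adjusted p = 0.109). Ibsp and Runx2 were lower in every PSC library than in any MSC library, and they passed in 3 and 2 of 21 alternatives. The higher members Pth1r and Mef2c also stand on the hypertrophic list. Smpd3 and Car12 were also among the osteoblast genes that rose. Smpd3, a sphingomyelinase needed for skeletal mineralisation, had 65971, 58181, 40104 and 48682 in PSC, against 25906, 29144, 23723 and 24175 in MSC (2.04-fold higher, adjusted p = 0.000196). Car12, a membrane carbonic anhydrase, had 4484, 5627, 3964 and 4749 in PSC, against 674, 1423, 849 and 925 in MSC (5.01-fold higher, adjusted p = 3.16e-05). Slc8a3, a sodium-calcium exchanger, was 2.27-fold higher. Enpp1 and Ank, which supply the mineralisation inhibitor pyrophosphate, were 1.63-fold and 1.65-fold lower (adjusted p = 0.00197 and 0.0121), while Alpl, the phosphatase that removes it, did not pass (log2 difference 0.19 ± 0.13, adjusted p = 0.333).

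Sterol synthesis enzymes rose together. 19 of 20 genes encoding the enzymes from acetyl-CoA to cholesterol were higher in PSC and 0 lower, with a median log2 difference of 1.21, and the count was 18 to 20 higher over the alternatives. Idi1, which isomerises the first isoprenoid unit, had 7941, 6304, 4470 and 5172 in PSC, against 2854, 2271, 1515 and 1980 in MSC (2.78-fold higher, adjusted p = 2.56e-05). It was higher in every PSC library than in any MSC library, and replicate 3 was the lowest library of both sorts. The late steps rose as well. Sc5d, the sterol C5 desaturase, had 2594, 3282, 2142 and 2647 in PSC, against 956, 1004, 725 and 1032 in MSC (2.86-fold higher, adjusted p = 1.96e-05). Cyp51, the lanosterol demethylase, averaged 6043 ± 846 in PSC, against 2717 ± 395 in MSC (2.23-fold higher). Sc4mol, the sterol C4 oxidase, averaged 10350 ± 2421 in PSC, against 3467 ± 815 in MSC (2.99-fold higher).

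Genes that sense, import or export sterol were 4 higher and 1 lower of 21 (median 0.13). The shares were 19% and 4.76%, beside 12.1% and 14.2% of all genes tested. Insig1, which holds the SREBP precursor in the endoplasmic reticulum and is itself induced by SREBP-2, averaged 16975 ± 3089 in PSC, against 8283 ± 1699 in MSC (2.06-fold higher, adjusted p = 0.00013). Scarb1, the HDL receptor, was 1.95-fold higher. Srebf2, which encodes SREBP-2, averaged 5112 ± 360 in PSC, against 5055 ± 189 in MSC, with an interval of its log2 difference of -0.17 to 0.20. Among 16 fatty acid genes 6 were higher and 1 lower. Scd1, a stearoyl-CoA desaturase, had 10786, 14147, 10547 and 11026 in PSC, against 3206, 4606, 4312 and 4169 in MSC (2.86-fold higher, adjusted p = 1.44e-07), and its paralog Scd2 was 2.21-fold higher. The sorts did not overlap for either. Fasn, the fatty acid synthase, did not pass (log2 difference -0.26 ± 0.17, adjusted p = 0.302), and Cpt1a, which admits fatty acids to mitochondria, was 3.23-fold lower (adjusted p = 2.33e-06).

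Promoter sequence of these genes was examined in the RefSeq promoter table of build GRCm38.p6 (250 bases before to 50 after the start). The letters CCAAT, the core of the binding site of NF-Y, which acts beside SREBP at sterol genes, were found on either strand in 14 of 15 cholesterol synthesis genes with an entry (93.3%), against 41.1% of all 27025 genes in the table. TCACNCCAC, a sterol regulatory element with 1 open base, was found in 1 of 15, Hmgcs1, against 1.44% of all genes. A match describes the letters and not a bound site. The list was drawn up from known enzymes of the pathway, so its share is no finding of these libraries. The 160 bases before the start, 5′ to 3′ on the gene's strand, are shown for 4 sterol genes that were higher in PSC, with CCAAT, its reverse complement ATTGG and TCACNCCAC in capitals.
Hmgcs1 (chr13:119690191-119690350, plus strand): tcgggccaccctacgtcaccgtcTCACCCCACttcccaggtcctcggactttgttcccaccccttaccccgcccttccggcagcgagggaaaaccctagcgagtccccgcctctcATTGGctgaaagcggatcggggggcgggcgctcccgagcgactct
Idi1 (chr13:8885446-8885605, plus strand): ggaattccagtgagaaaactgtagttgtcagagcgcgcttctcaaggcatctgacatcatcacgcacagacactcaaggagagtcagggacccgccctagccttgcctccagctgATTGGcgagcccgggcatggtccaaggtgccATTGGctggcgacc
Sc5d (chr9:42264301-42264460, minus strand): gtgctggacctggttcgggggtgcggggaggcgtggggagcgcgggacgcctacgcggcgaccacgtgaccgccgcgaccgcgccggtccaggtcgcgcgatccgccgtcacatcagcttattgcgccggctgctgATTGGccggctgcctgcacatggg
Cyp51 (chr5:4104698-4104857, minus strand): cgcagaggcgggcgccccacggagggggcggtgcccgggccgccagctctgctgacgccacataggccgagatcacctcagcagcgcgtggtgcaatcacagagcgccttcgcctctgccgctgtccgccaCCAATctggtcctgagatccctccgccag
The Hmgcs1 stretch holds TCACNCCAC at bases -137 to -129 and ATTGG at -45 to -41 from the start. Idi1 holds ATTGG at -45 to -41, the same place as in Hmgcs1, and again at -14 to -10. Sc5d holds 1 match at -24 to -20 and Cyp51 1 at -29 to -25, so all 4 have one within the last 45 bases. Hmgcs1, the synthase that commits acetoacetyl-CoA to the pathway, had 7072, 6276, 4669 and 5215 in PSC, against 3592, 2434, 2044 and 2288 in MSC (2.27-fold higher, adjusted p = 0.00443).

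Glycolysis genes were higher in PSC in 13 of 25 cases and lower in 2 (median 0.39), and other hypoxia-responsive genes in 10 of 24 and 0 (limma; up to 4 lower with the 8-library fit). Consecutive payoff-phase enzymes rose together. Pgk1, phosphoglycerate kinase, had 28778, 27195, 22352 and 25135 in PSC, against 9836, 11060, 8445 and 10371 in MSC (adjusted p = 3.98e-07). Pgam1, the mutase of the next step, had 16650, 16900, 11634 and 14560 in PSC, against 5741, 6381, 5118 and 6140 in MSC (2.54-fold higher, adjusted p = 7.84e-07). Sorts did not overlap for these genes, and replicate 3 was the lowest library of both sorts. The transporters at the 2 ends of the pathway also rose. Slc2a1, the glucose transporter GLUT1, had 4288, 5687, 5367 and 6730 in PSC, against 1555, 2011, 2144 and 2223 in MSC (2.77-fold higher, adjusted p = 0.000349). Slc16a3, the lactate exporter MCT4, had 4456, 4591, 3159 and 4546 in PSC, against 856, 1537, 1115 and 1370 in MSC (3.48-fold higher, adjusted p = 9.11e-06). The lactate dehydrogenase subunits went apart: Ldha rose, whereas Ldhb was 1.52-fold lower (adjusted p = 0.00764). The hexokinase gene Hk1 was 1.79-fold lower (adjusted p = 0.00115).

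The hypoxia-responsive rises were Bnip3 and Bnip3l, mitophagy receptors, Higd1a, a mitochondrial survival factor, P4ha1 and P4ha2, collagen prolyl hydroxylases, Stc2, Ddit4, Anxa2, Car12 and Slc2a1, the last also on the glycolysis list. Bnip3 had 13740, 15809, 12885 and 14494 in PSC, against 4547, 5232, 4052 and 5185 in MSC (adjusted p = 5.71e-07). P4ha2 had 16205, 17690, 13316 and 14707 in PSC, against 6696, 9082, 8099 and 8202 in MSC (1.93-fold higher, adjusted p = 9.76e-06). Both were higher in every PSC library. Bnip3l was 1.25-fold higher (adjusted p = 0.0274), a call lost without PSC replicate 1, 2 or 4, without MSC replicate 3 or 4 (adjusted p up to 0.0893) and without the 20 most abundant genes (0.401). Hif1a, which encodes the oxygen-regulated subunit of HIF-1, averaged 5937 ± 433 in PSC, against 5751 ± 400 in MSC, with an interval of its log2 difference of -0.14 to 0.23. Vegfa, a classical hypoxia target, averaged 664 ± 342 in PSC, against 690 ± 153 in MSC and did not pass (adjusted p = 0.831).

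ACGTG, the core of the hypoxia response element that HIF binds, stood in the promoters of 27 of 43 glycolysis and hypoxia genes with an entry (62.8%), against 21.8% of all genes. It was in 15 of the 21 that were higher in PSC. The lists were drawn up from known glycolysis and hypoxia-responsive genes, so their share is no finding of these libraries. Whether the motif goes with the rise in PSC was not tested. The 160 bases before the start of 4 of the higher genes follow, from the same table, with ACGTG and its reverse complement CACGT in capitals; CACGTG reads as both.
Pgk1 (chrX:106186940-106187099, plus strand): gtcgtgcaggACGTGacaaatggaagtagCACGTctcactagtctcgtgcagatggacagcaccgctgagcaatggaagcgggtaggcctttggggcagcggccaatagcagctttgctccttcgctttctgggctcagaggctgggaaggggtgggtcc
Ldha (chr7:46845644-46845803, plus strand): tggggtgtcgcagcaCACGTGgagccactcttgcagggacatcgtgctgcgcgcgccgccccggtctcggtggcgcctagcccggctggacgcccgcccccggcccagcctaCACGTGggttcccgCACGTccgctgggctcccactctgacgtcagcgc
Bnip3 (chr7:138909507-138909666, minus strand): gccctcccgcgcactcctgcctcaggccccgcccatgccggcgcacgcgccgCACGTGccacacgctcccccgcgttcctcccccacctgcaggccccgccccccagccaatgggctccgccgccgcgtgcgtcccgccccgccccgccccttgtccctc
Pgam1 (chr19:41911711-41911870, plus strand): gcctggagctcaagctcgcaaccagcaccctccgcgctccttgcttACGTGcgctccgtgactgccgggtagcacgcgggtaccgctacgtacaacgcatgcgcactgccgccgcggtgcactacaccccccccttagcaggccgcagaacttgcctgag
Pgk1 holds 2 separate matches, at -150 to -146 and -131 to -127. Ldha holds CACGTG at 2 places and a further CACGT at -34 to -30, the densest of the 4. Bnip3 holds 1 CACGTG and Pgam1 1 ACGTG.

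**Figure D3:**
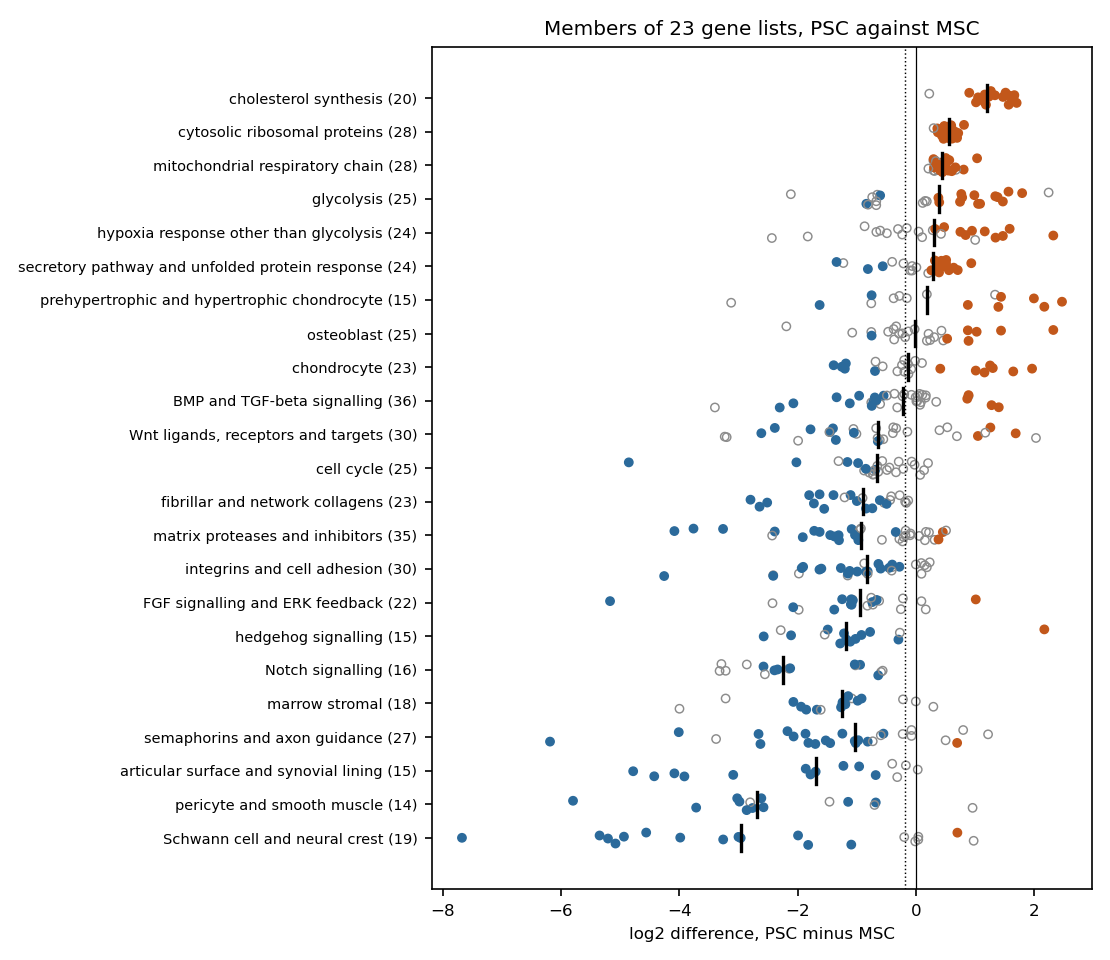
Each point is a tested gene of 1 of 23 lists, placed by its log2 difference, PSC minus MSC; orange points are higher in PSC, blue points lower and grey points did not pass, the black bar is the list's median and the dotted line the median of all genes, -0.18. Sterol synthesis and ribosomal lists lie right of 0 and the articular, perivascular and glial lists lie left of it.

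Genes of protein making and of mitochondrial respiration rose by small amounts. 27 of 28 cytosolic ribosomal protein genes were higher in PSC and 0 lower (median 0.57), and 19 of 28 respiratory chain genes were higher and 0 lower (median 0.44). Scaled without the 20 most abundant genes, the counts were 18 and 6, still with 0 lower, and the medians 0.36 and 0.23 beside -0.384 for all genes. Rplp0, of the ribosomal stalk, had 209090, 208680, 211140 and 250110 in PSC, against 150760, 155920, 115420 and 165610 in MSC (1.5-fold higher, adjusted p = 0.00595). Rps2, of the small subunit, had 87225, 88038, 82138 and 97346 in PSC, against 50140, 55530, 41154 and 56013 in MSC (1.76-fold higher, adjusted p = 5.65e-05). MSC replicate 3 was the lowest library for both. Atp5b, the catalytic subunit of ATP synthase, averaged 36013 ± 3356 in PSC, against 23727 ± 3152 in MSC (1.52-fold higher, adjusted p = 0.000232). Ndufa9, a complex I subunit, averaged 3127 ± 93.6 in PSC, against 1803 ± 285 in MSC (1.75-fold higher, adjusted p = 0.0011).

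Of 24 genes of the secretory pathway 13 were higher and 3 lower (median 0.29), and 6 and 4 with the other scaling. The rises included chaperones and collagen-modifying enzymes. Plod2, which hydroxylates collagen telopeptide lysines, had 22247, 23055, 17361 and 18194 in PSC, against 10046, 11512, 10152 and 10279 in MSC (1.91-fold higher, adjusted p = 2.2e-05). Calr, an endoplasmic reticulum chaperone, averaged 30542 ± 3103 in PSC, against 19582 ± 1525 in MSC (1.56-fold higher). Mia3, the receptor that loads collagen into transport carriers, was 2.53-fold lower (adjusted p = 0.000973), and Creb3l1, a collagen-inducing stress transducer, 1.75-fold lower.

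Hedgehog pathway genes split by role. The ligand Ihh was higher in PSC, while 11 of the 15 genes tested were lower, among them co-receptors, receptors and transcription factors (median -1.18; 9 to 13 lower over the alternatives). The co-receptors that help cells receive the ligand came first. Gas1 had 1312, 2163, 2184 and 1722 in PSC, against 8910, 9972, 13446 and 11241 in MSC (5.95-fold lower, adjusted p = 3.72e-09). Cdon had 2049, 2177, 2321 and 2086 in PSC, against 4532, 4382, 6740 and 4695 in MSC (2.32-fold lower, adjusted p = 7.8e-06). Boc had 2639, 2108, 3069 and 2188 in PSC, against 5294, 4210, 7472 and 5890 in MSC (2.26-fold lower, adjusted p = 7.02e-05). None of the 3 overlapped between the sorts, and MSC replicate 3 was the highest library for each. Hhip, which binds and sequesters hedgehog ligand and is induced by the pathway, had 510, 574, 652 and 366 in PSC, against 1864, 2154, 2807 and 2164 in MSC (4.32-fold lower, adjusted p = 1.89e-05). Ptch1, the receptor and also a target, had 4483, 2690, 2748 and 2724 in PSC, against 5815, 5596, 5442 and 4364 in MSC, so that PSC replicate 1 reached above the lowest MSC library (1.71-fold lower, adjusted p = 0.0128). Gli1, a transcription factor whose transcript follows pathway activity, had 513, 295, 755 and 275 in PSC, against 1077, 780, 926 and 881 in MSC (2.16-fold lower, adjusted p = 0.0113). In the progenitor sorts PP1 and PP2 Gas1 averaged 15507 and 15368, and Hhip 1092 and 1632. Cdon, Boc and Gli1 also averaged more in PP1 and PP2 than in PSC. Ptch1 went the other way, at 2009 in PP1 and 1744 in PP2, below its mean of 3161 in PSC.

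Among 30 Wnt ligands, receptors and targets 3 were higher, all of them ligands, and 8 lower, shares of 10% and 26.7% beside 12.1% and 14.2% of all genes tested (median -0.65; 2 to 7 higher and 7 to 16 lower over the alternatives). Wnt5b had 7252, 10007, 7365 and 8831 in PSC, against 2165, 3487, 2115 and 2736 in MSC (3.22-fold higher, adjusted p = 7.5e-07). Wnt5a had 3237, 3824, 2950 and 2996 in PSC, against 1011, 2157, 1278 and 1190 in MSC (2.4-fold higher, adjusted p = 0.000131). Both are ligands known for signalling without beta-catenin in cartilage, and for both the sorts did not overlap. Wnt4 was 2.07-fold higher (adjusted p = 0.0175), a call lost without PSC replicate 2 (adjusted p = 0.0538), without MSC replicate 3 (0.0567) and with the scaling that leaves out the 20 most abundant genes (0.0584). The lower genes were the ligand Wnt9a, receptors (among them Lrp4, Lrp5 and Lgr5) and beta-catenin targets (Lef1, Nkd1, Notum). Lrp5, a Wnt co-receptor that sets bone mass, had 1020, 1494, 2305 and 1310 in PSC, against 3513, 3645, 4768 and 3683 in MSC (2.64-fold lower, adjusted p = 0.000147). Nkd1, a feedback inhibitor, averaged 500 ± 54.6 in PSC, against 1034 ± 93.8 in MSC (2.07-fold lower, adjusted p = 0.0003), and Axin2, another target, did not pass (adjusted p = 0.519). Secreted antagonists were lower in 5 of 11 and higher in 1. Wif1 had 15073, 19782, 24854 and 27364 in PSC, against 33828, 39667, 42195 and 42903 in MSC (1.86-fold lower, adjusted p = 0.000968), while Frzb, an antagonist of cartilage, had 26156, 19230, 18511 and 20629 in PSC, against 14772, 13744, 14398 and 14486 in MSC (1.46-fold higher, adjusted p = 0.000832). The sorts did not overlap for either antagonist.

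Fibroblast growth factor (FGF) genes were lower in 10 of 22 cases (7 to 12 over the alternatives), and Fgfr3 was the 1 higher gene. The receptors thus went apart. Fgfr2 had 1798, 1249, 1673 and 1320 in PSC, against 3825, 3103, 4124 and 3218 in MSC (2.37-fold lower, adjusted p = 4.89e-05). Fgfr1, the receptor of perichondrial and hypertrophic cells, averaged 9122 ± 1465 in PSC, against 15232 ± 2724 in MSC (1.67-fold lower, adjusted p = 0.000863). Transcripts induced by the ERK kinase were among the lower ones. Dusp6, an ERK phosphatase, had 463, 548, 645 and 593 in PSC, against 944, 1142, 1401 and 1240 in MSC (2.09-fold lower, adjusted p = 0.000181). Etv5, an ERK-induced transcription factor, averaged 958 ± 123 in PSC, against 2077 ± 480 in MSC (2.14-fold lower, adjusted p = 5.8e-05). Neither overlapped between the sorts.

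Bone morphogenetic protein (BMP) and TGF-beta genes were higher in 4 and lower in 10 of 36 (median -0.21). The shares were 11.1% and 27.8%, beside 12.1% and 14.2% of all genes tested, whose median was -0.18. The antagonists Chrdl1 and Nog were 2.64-fold and 2.43-fold higher (adjusted p = 0.000356 and 0.00727), and so was Id1, an early BMP target, with 14464, 9280, 9292 and 8867 in PSC, against 6733, 5802, 4863 and 5230 in MSC (1.83-fold higher, adjusted p = 0.000345). Tgfbr3, the betaglycan co-receptor, had 471, 421, 501 and 348 in PSC, against 2049, 1975, 2599 and 1963 in MSC (4.93-fold lower, adjusted p = 2.05e-08). Grem1, an antagonist that marks stromal progenitors, was 4.2-fold lower (adjusted p = 0.00864). Insulin-like growth factor genes were 2 higher and 7 lower of 18, shares of 11.1% and 38.9% (median -0.48). Igf2 itself averaged 331130 ± 56102 in PSC, against 340500 ± 59410 in MSC and did not pass (adjusted p = 0.91), while the binding protein Igfbp5 had 2541, 2554, 4828 and 3167 in PSC, against 6132, 7452, 8283 and 7151 in MSC (2.28-fold lower, adjusted p = 3.11e-05). Notch genes counted 7 lower and 0 higher of 16 (limma; 6 to 12 lower and 0 higher over the alternatives). Notch3, the receptor of mural cells, had 278, 126, 304 and 150 in PSC, against 1140, 1461, 1164 and 1054 in MSC (5.96-fold lower, adjusted p = 4.55e-05). Dlk1, an atypical ligand of skeletal progenitors, averaged 70112 ± 9272 in PSC, against 143850 ± 23667 in MSC (2.05-fold lower, adjusted p = 1.89e-05).

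Matrix and adhesion lists held more lower than higher genes. 14 of 23 fibrillar and network collagen genes were lower and 0 higher in limma (median -0.90; 13 to 18 lower and 0 higher over the alternatives). Basement membrane collagens led. Col18a1 had 407, 272, 366 and 365 in PSC, against 2220, 2219, 2786 and 2528 in MSC (6.95-fold lower, adjusted p = 3.72e-09). Col4a1 had 1202, 747, 1162 and 1099 in PSC, against 6213, 5016, 6826 and 5766 in MSC (5.71-fold lower, adjusted p = 5.56e-08). The highest PSC library was far below the lowest MSC library for both. Col1a1, the main bone collagen, averaged 807270 ± 266220 in PSC, against 924070 ± 313730 in MSC and did not pass (adjusted p = 0.75). The list does not hold the cartilage collagen genes Col2a1 and Col10a1 described above. Summed over the list, collagen counts overlapped between the sorts, at 1217000 to 2548000 in PSC, against 1452000 to 2742000 in MSC. Col2a1 alone had 1990600 to 3756700 in PSC, against 5058300 to 7757800 in MSC, without overlap. Fn1, fibronectin, averaged 128490 ± 23557 in PSC, against 231910 ± 46356 in MSC (1.8-fold lower, adjusted p = 0.00115), and Aspn, asporin, was 2.91-fold higher (adjusted p = 0.00027). Proteases and their inhibitors were 2 higher and 16 lower of 35 (0 to 4 higher over the alternatives). Mmp9, a gelatinase, had 581, 889, 1298 and 362 in PSC, against 7440, 6916, 6820 and 5875 in MSC (9.58-fold lower, adjusted p = 0.000664). Mmp14, the membrane-anchored collagenase, had 5523, 5082, 7867 and 5134 in PSC, against 14519, 13775, 18103 and 14272 in MSC (2.6-fold lower, adjusted p = 1.38e-06). PSC replicate 3 was the highest PSC library for both, still below all MSC libraries.

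Integrin and adhesion genes counted 17 lower and 0 higher of 30 (limma; 13 to 22 lower and up to 1 higher over the alternatives). Itgb3, the partner of integrin alpha V in bone, had 116, 327, 259 and 442 in PSC, against 627, 967, 769 and 869 in MSC (3.1-fold lower, adjusted p = 0.00141). Semaphorin, netrin and slit genes, which guide axons and vessels, were lower in 17 of 27 and higher in 1, Unc5b. Ntn1, netrin-1, had 304, 234, 290 and 273 in PSC, against 935, 1094, 1492 and 1148 in MSC (4.19-fold lower, adjusted p = 9.38e-08). Unc5b, a netrin receptor, averaged 6389 ± 1144 in PSC, against 3962 ± 852 in MSC (1.62-fold higher, adjusted p = 0.00224). Ntn1 and Unc5b thus went in opposite directions.

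Markers of joint surface, perivascular, marrow stromal and glial cells were lower in PSC. In bulk RNA fewer cells of a type and less RNA per cell cannot be told apart, and the part that other cells play in the results above was not tested. Genes of the joint surface and synovial lining counted 11 lower and 0 higher of 15 (limma; median -1.69; 10 to 12 lower over the alternatives), and the list summed to 23020 to 47440 normalized counts in PSC and 72480 to 146400 in MSC. Prg4, lubricin, had 1138, 1934, 2117 and 1900 in PSC, against 33976, 41506, 74721 and 47946 in MSC (log2 difference -4.78 ± 0.32, adjusted p = 1.64e-08). Cilp, a protein of the cartilage intermediate layer, had 670, 203, 659 and 138 in PSC, against 5804, 4359, 13004 and 8119 in MSC (21.5-fold lower, adjusted p = 3.98e-07). MSC replicate 3 was the highest library for both and the sorts lay far apart. Erg, a transcription factor of joint cartilage and of endothelium, averaged 338 ± 42.6 in PSC, against 1240 ± 225 in MSC (3.63-fold lower, adjusted p = 7.57e-05).

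Pericyte and smooth muscle genes counted 10 lower and 0 higher of 14 (limma; median -2.69; 8 to 12 lower over the alternatives), summing to 18900 to 23220 in PSC, against 43590 to 53480 in MSC. Cspg4, the NG2 proteoglycan, which cartilage cells also express, made up most of that sum, with 16601 ± 1394 in PSC, against 26773 ± 4389 in MSC. Acta2, smooth muscle actin, had 2159, 1186, 687 and 571 in PSC, against 7237, 8833, 7632 and 8089 in MSC (7.91-fold lower, adjusted p = 3.21e-05). Mcam, the CD146 adhesion protein of mural and marrow stromal cells, had 195, 207, 189 and 215 in PSC, against 1465, 1644, 1607 and 1875 in MSC (8.12-fold lower, adjusted p = 6.5e-08). No PSC library came near the MSC range for either. Marrow stromal genes counted 11 lower and 0 higher of 18 (limma; median -1.24; 10 to 14 lower over the alternatives), summing to 12370 to 16240 in PSC, against 25750 to 36440 in MSC. Cxcl12, the chemokine that retains blood stem cells, had 2106, 3786, 2184 and 1841 in PSC, against 9242, 13821, 8731 and 6254 in MSC (log2 difference -1.94 ± 0.30, adjusted p = 0.000136). Lepr, the leptin receptor, had 337, 340, 381 and 343 in PSC, against 817, 1050, 972 and 563 in MSC (2.36-fold lower, adjusted p = 0.00254). MSC replicate 2 was the highest library for these 2 genes, and PSC replicate 3 was the highest PSC library for Lepr. Csf1, the macrophage growth factor that osteoclast precursors need, averaged 438 ± 38.9 in PSC, against 1715 ± 208 in MSC (3.9-fold lower, adjusted p = 1.85e-07), the 1 call among 6 osteoclast-regulating factors tested.

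Several of the largest falls were genes of Schwann cells and neural crest. Of that list 13 of 19 were lower and 1 higher (median -2.96; 9 to 13 lower over the alternatives). The list summed to 18790 to 25200 in PSC, against 32920 to 46220 in MSC, a sum in which Pmp22, a membrane protein also made outside nerve, averaged 9777 ± 2414 in PSC, against 9311 ± 952 in MSC. Foxd3 had 33.5, 0, 1.01 and 2.32 in PSC, against 633, 847, 820 and 906 in MSC (adjusted p = 1.7e-05), with PSC replicate 1 far above the other PSC libraries, so no fold is given. Sox10 had 15.6, 119, 61.3 and 94.1 in PSC, against 1527, 1903, 1754 and 2028 in MSC (log2 difference -4.94 ± 1.18, adjusted p = 0.00429). For both genes the highest PSC library lay far below the lowest MSC library. S100b, which glia and chondrocytes share, was the exception, 1.63-fold higher in PSC (adjusted p = 0.00213). The list summed to 16080 to 20660 in PP1 and 14980 to 17790 in PP2, and Foxd3 averaged 0 in both. The low sum and the low Foxd3 values were thus not particular to PSC.

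Markers of other cell types were summed in the same way. Endothelial genes summed to 1153 to 2379 in PSC, against 3485 to 5008 in MSC, with 3 of 16 lower (2 to 8 over the alternatives), and none of the defining genes Pecam1, Cdh5 and Emcn passed in limma. Neutrophil and monocyte genes ranged widely within PSC (171 to 3335, against 241 to 1025 in MSC) and had 0 higher and 0 lower of 15 in limma. Erythroid genes summed to 4341 to 9623 in PSC, against 4737 to 7500 in MSC, and had 2 higher and 1 lower of 9 (median 2.60; 0 to 5 higher over the alternatives). Osteoclast genes summed to 5945 to 7071 in PSC, against 11800 to 13800 in MSC, in which Mmp9 averaged 783 ± 406 in PSC, against 6763 ± 652 in MSC, while Acp5, the defining phosphatase, averaged 244 ± 52.1 in PSC, against 220 ± 24.6 in MSC (adjusted p = 0.836) and Calcr was at 0 in all 8 libraries. Skeletal muscle genes summed to 585 to 876 in PSC, against 344 to 510 in MSC. Fibroblast genes were 3 higher and 7 lower of 22, shares of 13.6% and 31.8% beside 12.1% and 14.2% of all genes tested. Dpt, among the defining genes of the fibroblast list, was low in both sorts, at 33.6 ± 23.9 in PSC, against 58 ± 15 in MSC, where PP1 and PP2 averaged 7874 and 10083. Tendon and ligament genes were 2 higher and 6 lower of 16 (12.5% and 37.5%, median -0.38), summing to 256700 to 350300 in PSC, against 412800 to 592800 in MSC. Against the direction of that sum, Tnmd, tenomodulin of tendon, had 3078, 3175, 5426 and 4824 in PSC, against 1657, 1589, 1211 and 1562 in MSC (2.68-fold higher, adjusted p = 7.67e-05), without overlap.

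**Figure D4:**
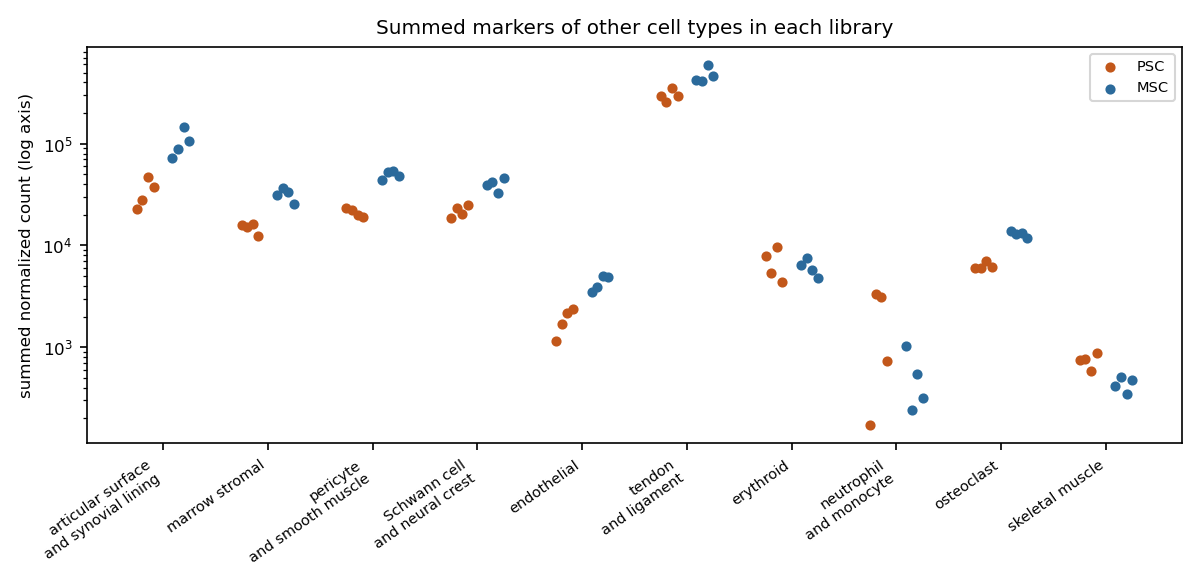
Summed normalized counts of 10 marker lists, side by side on 1 log axis, with orange points for the 4 PSC libraries and blue points for the 4 MSC libraries. The articular, marrow stromal, perivascular and glial sums lie lower in every PSC library, and the neutrophil and monocyte sum overlaps between the sorts.

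Of the genes tested 64 had no read in any PSC library and at least 10 normalized counts in all 4 MSC libraries, and 0 the other way round. These counts are to be read beside the share of all tested genes without a read. It was 7.06% in a PSC library on average, against 0.476% in an MSC library. Such genes can also pass the filter through the MSC libraries alone, as Rasgef1c and Celsr1 did, which averaged 0 in PP1 and PP2. A floor of 3 reads corresponds to 3.217 normalized counts in PSC on average. Against it Rasgef1c, an exchange factor for Ras-type GTPases, was at least 53.1-fold lower in PSC, with 140, 173, 146 and 223 in the MSC libraries. Chl1, a neural adhesion protein, was at least 41.0-fold lower, with 117, 143, 140 and 128 in MSC, and Celsr1, a planar polarity cadherin, at least 38.5-fold lower, with 86.7, 161, 104 and 144 in MSC. These bounds cover counting error only. Col20a1, a minor collagen, had 31.2, 3.02, 3.02 and 52.3 in PSC, against 1768, 1699, 2488 and 1948 in MSC, and Pou3f1, a transcription factor of promyelinating Schwann cells, 2.23, 60.3, 2.01 and 15.1 in PSC, against 1067, 1258, 1092 and 1309 in MSC (adjusted p = 0.00046 and 0.000851). The PSC libraries differ more than 10-fold among themselves for both, so no fold is given. In PP1 and PP2 Col20a1 averaged 11.5 and 5.21, and Pou3f1 23.7 and 7.44, so both were low there too.

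Cell cycle genes counted 6 lower and 0 higher of 25 (limma; median -0.65; 5 to 13 lower and 0 higher over the alternatives). The lower share was 24%, beside 14.2% of all genes tested. Mki67, the proliferation marker, had 53.6, 9.05, 0 and 18.6 in PSC, against 411, 236, 266 and 287 in MSC (adjusted p = 0.00195), with no fold given since 1 PSC library had no read. Top2a, the mitotic topoisomerase, had 157, 84.5, 78.4 and 74.3 in PSC, against 411, 343, 433 and 356 in MSC (4.06-fold lower, adjusted p = 0.00152). Both were low in all libraries and without overlap, while Pcna, a replication clamp, averaged 1377 ± 123 in PSC, against 1318 ± 203 in MSC and did not pass (adjusted p = 0.79). Cell cycle inhibitors went both ways. Cdkn1c, an imprinted gene that encodes the cell cycle inhibitor p57, had 97472, 109170, 81377 and 95129 in PSC, against 37912, 39537, 34802 and 35334 in MSC (2.59-fold higher, adjusted p = 5.42e-08). Cdkn1a, the p21 inhibitor, averaged 11570 ± 2807 in PSC, against 6619 ± 1196 in MSC (1.73-fold higher), and Cdkn1b, the p27 inhibitor, 1036 ± 97.2 in PSC, against 1606 ± 227 in MSC (1.54-fold lower; adjusted p = 0.00183 and 0.00578).

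Immediate early genes, which tissue digestion can induce, had 4 higher and 8 lower of 28 (median -0.04). The shares were 14.3% and 28.6%, beside 12.1% and 14.2% of all genes tested. Klf6, a stress-induced transcription factor, averaged 6568 ± 462 in PSC, against 3323 ± 138 in MSC (1.97-fold higher, adjusted p = 2.33e-06). Nr4a1, a nuclear receptor, averaged 4289 ± 1791 in PSC, against 9176 ± 3347 in MSC (2.15-fold lower, adjusted p = 0.00361). Its libraries overlapped, with PSC replicate 1 (6969) above MSC replicate 2 (5528). Fos and Junb, common dissociation markers, did not pass (adjusted p = 0.338 and 0.902). Ctsk, whose promoter drives the Cre of the sorted reporter, had 2316, 2293, 3457 and 2940 in PSC, against 2271, 1996, 1971 and 2089 in MSC, a separation without overlap whose 1.3-fold call (adjusted p = 0.0431) was lost in 8 of 21 alternatives, among them the fits without PSC replicate 3 or 4 and without any 1 of the MSC libraries (adjusted p up to 0.152), and with the scaling that leaves out the 20 most abundant genes (0.401).

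Among the largest rises in PSC outside these groups were genes of transport and antigen processing. Slc13a5, a plasma membrane citrate importer, had 14806, 17977, 13203 and 14923 in PSC, against 2852, 5015, 2996 and 3509 in MSC (4.32-fold higher, adjusted p = 5.9e-07). Slc35g1, a membrane transporter family member, had 6407, 8626, 7414 and 7910 in PSC, against 1408, 2531, 1414 and 1942 in MSC (4.26-fold higher, adjusted p = 2.9e-07). Both were higher in every PSC library than in any MSC library, and replicate 2 was the highest library of both sorts for each. Fxyd2, a regulatory subunit of the sodium pump, was 5.7-fold higher (adjusted p = 0.0011), and Aldh1a3, which makes retinoic acid, 3.92-fold higher (adjusted p = 0.000968). H2-DMa and H2-DMb1 encode the 2 chains of H2-DM, the chaperone that loads peptide onto MHC class II. H2-DMa had 1479, 1901, 1191 and 1789 in PSC, against 206, 434, 222 and 320 in MSC (5.53-fold higher, adjusted p = 3.15e-05). H2-DMb1 had 1537, 1884, 1394 and 1895 in PSC, against 312, 474, 348 and 414 in MSC (4.34-fold higher, adjusted p = 3.11e-05). The chains varied together, with replicates 2 and 4 high in both sorts. In PP1 and PP2 H2-DMa averaged 325 and 121, and H2-DMb1 320 and 271. Of 21 interferon and antigen presentation genes on the list, which does not hold these 2, 1 was higher and 6 were lower, among them H2-D1, an MHC class I chain (1.89-fold lower, adjusted p = 6.02e-05).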

How the data were processed

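Bulk RNA-seq of sorted cells was made with the RNeasy Plus Micro and TruSeq RNA kits on a HiSeq4000, per the labels' protocols. Tools listed, without role or order, in the submitters' processing notes are TopHat2 2.0.11, bcl2fastq 2.17, HTSeq 0.6.1, cutadapt and DESeq2 1.6.3, with mm10 as the build. The annotation, the filters and whether strand was used in counting are, in the sources used here, not given, so overlapping genes and near-identical paralogs may share reads. The deposited values are a signal: each library's gene counts over a size factor of its own, which the authors applied, as the steps between values show. Whole reads were recovered from them for 100% of values (tolerance 1e-06), which gave the depths. Gene identifiers were matched to GENCODE M21 (21829 matched).

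From these values log2(value + 1) was modelled with limma 3.58.1 (R 4.3.3; trend on intensity), fitted to all 16 libraries in 4 groups, with Benjamini-Hochberg adjustment over 13797 genes and a threshold of 0.05. The script was tested on simulated data. As alternatives 21 settings were tried: edgeR 4.0.16 and DESeq2 1.42.0 on the recovered reads, which called 3320 and 3607 genes, voom with sample weights, other scalings, pseudocounts and filters, thinned reads, the 8 libraries alone, a replicate block, and each PSC and MSC library left out. Lower bounds from reads cover counting error only.

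The genes and lists were chosen with earlier results of these data known. Named genes are the largest rises and falls without overlap, the most abundant called genes, genes without reads in 3 or 4 libraries of 1 sort, and per list the called members of smallest adjusted p, the defining markers and the most abundant member, with a short list of sort and marker genes. Named after their values were seen, outside that rule, are Alpl, Ank, Aspn, Axin2, Bnip3l, Creb3l1, Cytl1, Ddit4, Enpp1, Fasn, Gli1, Hif1a, Hk1, Hmgcs1, Junb, Krt5, Ldhb, Lef1, Lgr5, Lrp4, Mmp13, Nog, Notum, Pcna, Ptch1, Slc16a3, Slc2a1, Sox5, Srebf2, Vegfa and Wnt4. Lists are described by counts and medians and were not tested as sets. Some list members are not reported here.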

Additional observations from a re-analysis of the deposited data

Results flagged for a closer look

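In 23 of 326 groups of 4 libraries examined (7.06%), 1 library of a named gene stood apart from the other 3 by more than Dixon's 95% critical value, on the log2 scale; chance alone gives about 1 in 20. PSC replicate 1 was high for Fxyd2 (4655, against 2945 to 3111 in the others), Id1 (14464, against 8867 to 9292 in the others) and Matn1 (315432, against 134220 to 155100 in the others). It was also high for Nr4a1 (6969, against 3213 to 3494 in the others), P4ha1 (19440, against 16954 to 17081 in the others) and Ptch1 (4483, against 2690 to 2748 in the others). The same library was high for Top2a (157, against 74.3 to 84.5 in the others). It was low for Dpt (0, against 33.2 to 51.3 in the others). PSC replicate 2 was high for Acp5 (322, against 209 to 223 in the others), Alpl (18866, against 13790 to 14530 in the others) and Scd1 (14147, against 10547 to 11026 in the others). PSC replicate 3 was high for Lepr (381, against 337 to 343 in the others). It was low for Fgfr3 (11472, against 15440 to 15887 in the others) and Slc16a3 (3159, against 4456 to 4591 in the others). PSC replicate 4 was high for Rplp0 (250113, against 208680 to 211140 in the others). MSC replicate 2 was high for Plod2 (11512, against 10046 to 10279 in the others) and Slc8a3 (5804, against 4719 to 4850 in the others). It was low for Hk1 (1125, against 1383 to 1401 in the others). MSC replicate 3 was high for Cdon (6740, against 4382 to 4695 in the others), Igf2 (429584, against 309430 to 313110 in the others) and Lrp5 (4768, against 3513 to 3683 in the others). It was also high for Tgfbr3 (2599, against 1963 to 2049 in the others). It was low for Ddit4 (2916, against 3495 to 3624 in the others). All values are normalized counts, and no cause was tested. The calls among these genes that are lost without 1 library are given with their values beside the genes.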

How the results depend on the processing

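The count of 3630 genes was 5800 with voom and sample weights (2783 higher and 3017 lower in PSC). Lower calls were 2993 in the fit of the 8 libraries, and higher calls were 825 with the scaling that leaves out the 20 most abundant genes. Without 1 library at a time the count was 2532 to 3487, with 1169 to 1610 higher and 1363 to 1877 lower, and the difference in detected genes was -2494.8 to -2183.8; the lowest counts came without MSC replicate 3. The cause of these shifts was not tested. With the replicate number as a block 3999 genes passed, 1864 higher and 2135 lower. Deviations of same-numbered PSC and MSC libraries correlated at 0.0997, 0.0317, 0.097 and 0.149, and each PSC library correlated best with its own number, a hint from the data and not from the design. Of 135 called genes named in the text 127 passed under all 21 alternatives in which they were fitted, 8 lost the call under at least 1, and 0 changed direction. With all libraries thinned to equal depth 7.1% of tested genes had no read in a PSC library and 0.62% in an MSC library, against 7.06% and 0.476% as deposited.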

Other observations

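Keratin genes of squamous epithelium, a cell type on none of the lists, had reads in all MSC libraries. Krt14, a basal keratin, had 2.23, 162, 112 and 16.3 in PSC and 874, 1563, 1229 and 908 in MSC (adjusted p = 0.0112 in limma; no fold is given, since the PSC libraries differ more than 10-fold), a call lost with DESeq2 (adjusted p = 0.053). Krt5, its pairing partner, had 71.4, 234, 112 and 2.32 in PSC and 1013, 1366, 805 and 598 in MSC and did not pass (adjusted p = 0.0713). PSC replicates 2 and 3 were the 2 highest PSC libraries for both keratins, and all PSC libraries lay below the MSC libraries.

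Of 30 transcription factors of limb position 5 were lower, a share of 16.7% near the 14.2% of all genes tested, and 0 higher in limma (4 to 8 lower and up to 1 higher over the alternatives). Tbx4, the hindlimb T-box factor, had 94.9, 108, 199 and 111 in PSC and 576, 403, 832 and 520 in MSC (4.56-fold lower, adjusted p = 0.000183). Pitx1, which specifies hindlimb, had 1260, 1175, 1168 and 1340 in PSC and 1852, 1748, 2258 and 1615 in MSC (1.5-fold lower, adjusted p = 0.00183). The sorts did not overlap for these 2 genes. Crabp1, a cellular retinoic acid binding protein, had 165, 189, 460 and 228 in PSC and 72.1, 53.4, 31.7 and 49.3 in MSC (4.75-fold higher, adjusted p = 0.000148). The lowest PSC library lay above the highest MSC library.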
